A study of Mus musculus with 20 samples.

Results

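Interferon-stimulated genes, the genes that cells switch on when interferons bind their receptors, were followed across 5 cell populations sorted from mouse dorsal epidermis. The set holds 34 of the 53380 genes in the table of normalized counts. Names were chosen from common knowledge of the interferon response and not by measured values, with earlier results of these data known. All 34 were found. Of these, 31 reached 10 normalized counts in at least 3 of the 20 libraries and were tested, and 3 did not. Those 3 were Ifit3, with 0 to 24.5 normalized counts over all libraries, Ifitm1, with 0 to 8.7, and Oasl1, with 0 to 15.0.

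Type I interferons signal through a receptor made of Ifnar1 and Ifnar2, and type II interferon through one made of Ifngr1 and Ifngr2. Kinases of the Jak family at these receptors switch on transcription factors such as Stat2, which with Irf9 binds a promoter sequence known as the interferon-stimulated response element. The induced genes encode sensors of viral RNA, enzymes that cut or block viral RNA, membrane proteins that stop virus entry or release, and the transcription factors that carry the response further. Skin keratinocytes and resident T cells can both produce and answer interferons.

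The study asked how keratinocytes that carry Thy1, a surface protein better known from T cells, differ from other epidermal cells. Thy1hi cells (4 libraries) and Thy1- cells (4 libraries) are keratinocytes gated as α6+ and Sca1+, HFSCs (4 libraries) are hair follicle stem cells gated as α6+, Sca1- and CD34+, and DETCs (5 libraries) are dendritic epidermal T cells gated as α6-, Sca1low and Thy1+. A further 3 libraries hold Thy1hi YFP+ cells, in which a tamoxifen-inducible Cre under the Thy1 promoter had switched on EYFP. The labels give the genotype Thy1.2CreERT2-Rosa26-EYFP and no treatment for every sample, whereas the methods give wild-type C57BL/6J mice for the first 4 populations and induced reporter mice for the last. The labels name the YFP+ cells as lacking Sca1, while their titles and the methods place them in the Sca1+ gate. Ages in the labels rise from 8 to 27 weeks by 1 week per sample, against 8 weeks in the methods, and so follow the order of the populations. Legends of the study speak of mice per population and also of pooled mice, without tying a mouse or a pool to a library, so p-values measure the spread between libraries. Libraries are called by the replicate number of their label, apart from 2 DETC libraries named a and b, whose column numbers match no label. The column of Thy1hi library 3 carries an extra number that its label lacks, and it was matched by the last number in its name.

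Each library held 7781256 to 12982393 reads on genes, of which 13.1% to 41.5% fell on the ribosomal RNA gene Rn45s. The summed level of 6 T cell markers, among them Cd3e and Trdc, was 19030 to 39660 normalized counts in DETCs and at most 424 in any other library. DETCs also held 10410 to 47870 counts of 6 basal keratinocyte markers such as Krt5 and Krt14, against 175200 to 233400 in Thy1hi cells, so keratinocyte RNA was present in the DETC libraries. Markers of Langerhans cells, which like DETCs live in the epidermis, summed to 154 to 5390 in HFSCs, 1232 to 3307 in DETCs and 535 to 2049 in the Thy1hi and Thy1- libraries. In bulk samples of this kind, fewer cells expressing a gene and less RNA of it per cell cannot be told apart. By the median over the set, the libraries furthest from the rest of their population were YFP+ library 3 and DETC library 1, which were high, and YFP+ library 2 and HFSC library 4, which were low. HFSC library 1, Thy1hi library 3 (both high) and Thy1hi library 4 (low) followed. Medians over the set are given with and without the libraries that moved them most.

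Promoter sequences from RefSeq (GRCm38.p6, the same build as mm10) spanned 250 bases before to 50 bases after each start site, and 27 of the 34 genes matched an entry. The letters GAAANNGAAA, a core of the interferon-stimulated response element, stood on 1 of the strands in 15 of the 27 genes (55.6%), against 1079 of 27025 genes in the whole table (3.99%). Matches are a description of letters only. In the comparisons that follow, Isg15, Bst2 and Stat2 were higher in DETCs than in HFSCs, and Oas1a was lower in DETCs than in Thy1hi cells. Ifit1 passed the threshold for DETCs against HFSCs in the paired fit of 3 numbered pairs, but not in limma over all libraries (adjusted p = 0.762). The windows below are shown because these genes take opposite places. Each is written 5′ to 3′ along the strand of its gene, and capitals mark the match, which reads TTTCNNTTTC where it lies on the other strand.
Isg15: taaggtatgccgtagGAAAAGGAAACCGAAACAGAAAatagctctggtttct
Bst2: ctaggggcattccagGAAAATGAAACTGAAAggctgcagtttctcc
Stat2: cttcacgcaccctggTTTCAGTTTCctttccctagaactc
Oas1a: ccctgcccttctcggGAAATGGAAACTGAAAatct
Ifit1: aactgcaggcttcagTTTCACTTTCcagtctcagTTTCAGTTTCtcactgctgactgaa
The Isg15 window lay at chr4:156200860-156200911 (minus strand), where 3 overlapping matches ended 57 bases before the start site. The Bst2 window lay at chr8:71537572-71537617 (minus strand), its 2 overlapping matches ending 115 bases before the start. The Stat2 window lay at chr10:128270261-128270300 (plus strand), 213 bases before the start. The Oas1a window lay at chr5:120907526-120907560 (minus strand), and its 2 overlapping matches ended 5 bases before the start. The Ifit1 window lay at chr19:34640770-34640828 (plus strand) with 2 matches, the nearer of which ended 76 bases before the start. No match was found in the windows of Irf1, Irf7, Irf9, Isg20, Ifi35, Ifi44, Ifit2, Ifitm1, Oasl1, Oasl2, Trim25 and Xaf1. Dhx58, Mx1, Mx2, Oas2, Parp14, Rtp4 and Usp18 had no entry.

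Most of the 34 genes were expressed at low to moderate levels in all populations, as the map of all 31 tested genes by library shows. On the scale of normalized counts per kilobase of exon, Ifitm3, a membrane protein that blocks the fusion of viruses with the cell, was the highest in the Thy1hi YFP+ cells (1028 per kilobase), Thy1hi cells (909.9), Thy1- cells (560.5) and HFSCs (294). In DETCs the highest was Isg15, a ubiquitin-like protein that is joined to other proteins after interferon, with 297 per kilobase, and Irf1, the transcription factor of the interferon gamma response, followed with 189.6. At the other end, Ifi44 stayed between 0.65 per kilobase in DETCs and 2.95 in YFP+ cells. In order of mean normalized counts, the YFP+ cells stood first at 23 of the 31 tested genes and HFSCs stood last at 19, against 17.4% and 23.2% of all genes tested. Without YFP+ library 3, the YFP+ cells stood first at 12 of the 31, and without HFSC library 4 the HFSCs stood last at 16. DETCs stood first at 5 genes (Isg15, Bst2, Irf7, Ddx58 and Ifit2) and last at 9, against 30.3% and 30.7% of all genes tested. Thy1hi cells stood first at 1 (Irf1) and last at none, against 12.3% and 14.6%. These counts also depended on YFP+ library 3, without which DETCs stood first at 9 and Thy1hi cells at 7.

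**Figure D1:**
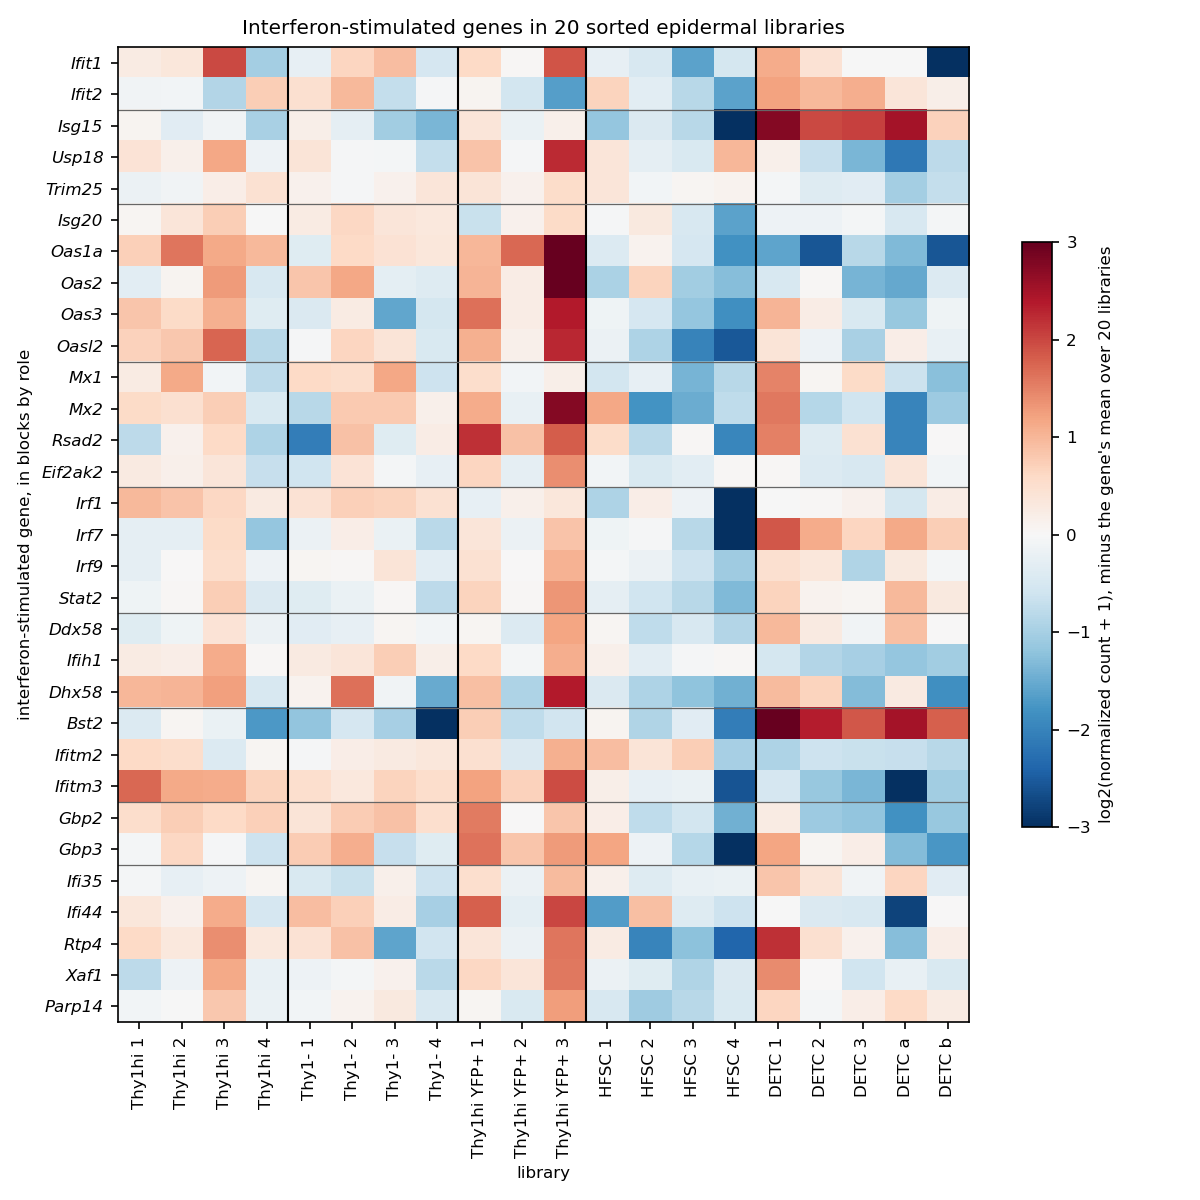
Map of the 31 tested interferon-stimulated genes (rows, in blocks by role) in the 20 libraries (columns, in blocks by population). Colour gives log2(normalized count + 1) minus the mean of the gene over the 20 libraries, with the scale ending at 3 and −3. Isg15 and Bst2 are red in the DETC columns, and YFP+ library 3 and HFSC library 4 stand out as a red and a blue column.

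Set against HFSCs, DETCs rose at some interferon-stimulated genes and fell at others. In the limma fit, 7 of the 31 were higher in DETCs and 3 were lower, where 39.7% of all genes tested were called (21.2% higher and 18.5% lower), so the share called among the set (10 of 31) was not above the background. The median log2 fold change was 0.47, against 0.02 over all genes, and it was 0.27 without DETC library 1, 0.32 without HFSC library 4 and 0.76 without HFSC library 1. Quantile normalization put the median of all genes at −0.15 in this comparison and at −0.20 against Thy1hi cells. It changed the split of all calls in this comparison from 3644 higher and 3189 lower to 3024 and 3973. Under it 6 members were higher and 5 were lower (40.7% of all genes called).

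Among the members that take part in ISG15 conjugation, Isg15 (ENSMUSG00000035692.6, chromosome 4 from 156199424 to 156200818) had 344, 200.3, 210.3, 285 and 81.7 normalized counts in DETC libraries 1, 2, 3, a and b and 21.9, 36.9, 27.8 and 2.1 in HFSC libraries 1 to 4. All 5 DETC libraries lay above all HFSC libraries, of which library 4 was by far the lowest. The means were 224 ± 99.1 (SD, n = 5) and 22.2 ± 14.8 (SD, n = 4), with a log2 fold change of 3.61 (SE 0.56, adjusted p = 3.31e-05). Without HFSC library 4 it was 2.80 (adjusted p = 2.29e-05). Trim25, the ubiquitin ligase that switches on the sensor RIG-I, had 327, 261, 268, 169 and 208 in DETCs and 437, 321, 356 and 369 in HFSCs. It was lower in DETCs by a small margin and the ranges of the populations overlapped, with a log2 fold change of -0.61 (SE 0.18, adjusted p = 0.0117). Usp18, the protease that takes ISG15 off proteins and restrains the type I receptor, had 51.9, 28.5, 17.4, 9.6 and 26.4 in DETCs and 60.0, 38.0, 33.1 and 93.2 in HFSCs. Its log2 fold change of -1.12 (SE 0.47, adjusted p = 0.0623) did not pass the threshold, whereas without HFSC library 3 (−1.33, adjusted p = 0.0478) or DETC library 1 (−1.40, adjusted p = 0.0201) it did.

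Bst2 (ENSMUSG00000046718.8, chromosome 8 from 71534255 to 71537456), also known as tetherin because it holds budding virus on the cell surface, had 172, 81.3, 57.7, 90.5 and 55.2 normalized counts in DETCs and 16.2, 7.6, 11.8 and 2.8 in HFSCs. The lowest DETC library was above the highest HFSC library. The log2 fold change was 3.20 (SE 0.57, adjusted p = 0.000136). Ifitm2 and Ifitm3, membrane proteins that block virus entry, went the other way or did not pass. Ifitm2 had 30.3, 37.6, 36.4, 35.7 and 32.4 in DETCs and 111, 77.1, 98.3 and 28.7 in HFSCs, where 3 HFSC libraries were above every DETC library and library 4 was below every one. Its log2 fold change was -1.01 (SE 0.34, adjusted p = 0.0238), and the call was lost when HFSC library 1, 2 or 3 was left out (−0.97 to −0.79, adjusted p 0.0535 to 0.101). Ifitm3 had 188, 120.0, 103, 20.6 and 129 in DETCs and 300.1, 223, 232 and 43.4 in HFSCs, with a log2 fold change of -0.82 (SE 0.53, adjusted p = 0.231) that became -1.44 (adjusted p = 0.0184) without HFSC library 4.

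Of the transcription factors, Irf7 (ENSMUSG00000025498.15, chromosome 7 from 141262706 to 141266481), which drives transcription of the interferon alpha genes, had 293, 173, 125, 176 and 132 normalized counts in DETCs and 72.7, 77.1, 43.8 and 6.31 in HFSCs. All DETC libraries were higher, and HFSC library 4 was far below the rest of its population. The log2 fold change was 2.22 (SE 0.52, adjusted p = 0.00188), and 1.44 (adjusted p = 0.0034) without that library. Stat2, part of the complex that binds the response element, had 398, 268, 262, 494 and 305 in DETCs and 209, 166, 140.1 and 100.2 in HFSCs. The populations did not overlap at Stat2 either, and the log2 fold change was 1.17 (SE 0.29, adjusted p = 0.00275). Irf9, the partner of Stat2, had a log2 fold change of 0.51 (SE 0.28, adjusted p = 0.16), which passed only when DETC library 3 was left out (0.75 (adjusted p = 0.0249)). Irf1 had 757, 775, 827, 524 and 886 in DETCs and 399, 881, 686 and 39.9 in HFSCs, and its log2 fold change of 1.24 (SE 0.55, adjusted p = 0.0801) was past the threshold without HFSC library 2 (1.73) or 3 (1.61, adjusted p 0.0168 to 0.0346) and was 0.25 (adjusted p = 0.386) without HFSC library 4.

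The 3 sensors of viral RNA did not share a direction. Ddx58, which encodes RIG-I, had 319, 197, 152, 307 and 163 normalized counts in DETCs and 171, 95.6, 115 and 88.3 in HFSCs. Most DETC libraries were higher but the ranges overlapped, and the log2 fold change was 0.93 (SE 0.30, adjusted p = 0.0164). Ifih1, which encodes MDA5, had 105, 82.4, 75.9, 67.2 and 73.3 in DETCs and 171, 123, 149.7 and 156 in HFSCs. Here every DETC library was below every HFSC library, with a log2 fold change of -0.89 (SE 0.24, adjusted p = 0.00506). Dhx58, the related protein without a signalling domain, stayed at or below 22.5 counts in DETCs and 8.08 in HFSCs, and its log2 fold change was 0.75 (SE 0.70, adjusted p = 0.421).

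Parp14, an enzyme that attaches ADP-ribose to proteins, had 469, 288, 343, 458 and 357 normalized counts in DETCs and 216, 143, 167 and 218 in HFSCs. The populations did not overlap, and the log2 fold change was 1.04 (SE 0.28, adjusted p = 0.00638). Rtp4, a receptor transport protein, had 55.8, 16.3, 12.7, 4.12 and 13.2 in DETCs and 13.8, 2.17, 4.28 and 1.4 in HFSCs. The ranges overlapped, DETC library 1 was far above the others, and the log2 fold change was 1.67 (SE 0.66, adjusted p = 0.0483). That call was lost without HFSC library 2, 3 or 4 or without DETC library 1, 2, 3 or b (1.21 to 1.73, adjusted p 0.0613 to 0.136). Calls at Isg15, Bst2, Irf7, Stat2, Parp14 and Ifih1 held under every alternative in which the gene was tested.

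DETC and HFSC libraries that carry equal numbers also moved together around their population means (r 0.170 to 0.333 in the 3 numbered pairs), so the pairs were also fitted as such. Libraries with unequal or no numbers gave r from −0.318 to 0.371, so the highest single value, at DETC library 1 with HFSC library 3, was not at an equal number. DETC libraries a and b and HFSC library 4 had no partner, so the paired fit rested on libraries 1 to 3 of each population. The effects of the pairing and of leaving out the libraries without a partner were not told apart. In the paired fit, 10 members were higher in DETCs and 4 lower, with 42.1% of all genes called. It added Ifit1, whose product binds foreign RNA, at 1.29 (SE 0.37, adjusted p = 0.0242), Mx1, a GTPase that blocks influenza virus, at 1.44 (SE 0.48, adjusted p = 0.0427), and Oasl2, at 0.78 (SE 0.22, adjusted p = 0.0195), as higher, and Ifitm3, at -0.91 (SE 0.18, adjusted p = 0.00357), as lower in DETCs.

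**Figure D2:**
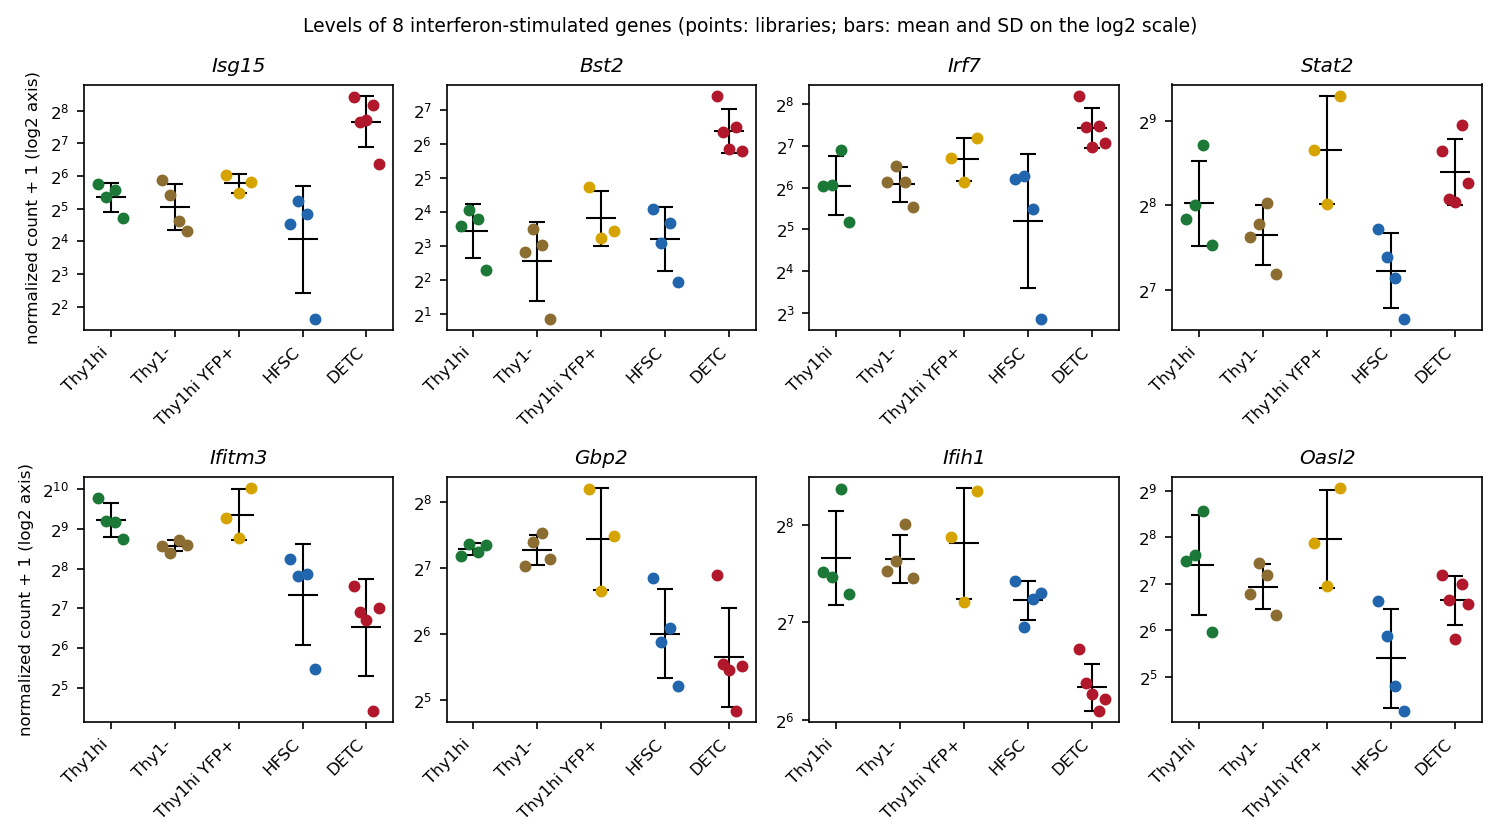
Normalized counts + 1 (log2 axis) of 8 interferon-stimulated genes, each point 1 library and each bar the mean and SD on the log2 scale, by population. Isg15 and Bst2 are higher in each of the 5 DETC libraries than in any other library, the DETC means of Ifitm3, Gbp2 and Ifih1 lie below those of Thy1hi cells, and HFSC library 4 is the lowest HFSC point at 7 of the 8 genes.

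Against Thy1hi keratinocytes, which share the Thy1 gate with DETCs, 3 of the 31 genes were higher in DETCs and 7 were lower. Of all genes tested, 36.6% were called (19.9% higher and 16.6% lower), and the median log2 fold change was −0.47 in the set and 0.00 over all genes. The median of the set was −0.71 without DETC library 1, −0.28 without DETC library b and −0.30 without Thy1hi library 3. Quantile normalization changed the split of all calls from 3425 higher and 2864 lower to 2921 and 3936, and that of the members to 2 higher and 7 lower (39.9% of all genes called). This comparison shares its DETC libraries with the one against HFSCs. Isg15 had 53.0, 39.5, 46.3 and 25.2 normalized counts in Thy1hi libraries 1 to 4, all below the DETC values, and a log2 fold change of 2.32 (SE 0.56, adjusted p = 0.00246). Bst2 had 11.0, 15.8, 13.0 and 3.88 in Thy1hi cells, again all below, and a log2 fold change of 2.96 (SE 0.57, adjusted p = 0.000297). Irf7 had 65.1, 65.9, 118 and 34.9 in Thy1hi cells, just below the lowest DETC library, and a log2 fold change of 1.38 (SE 0.52, adjusted p = 0.0413). The Irf7 call was lost without DETC library 1, 2 or a or without Thy1hi library 1, 2 or 4 (1.09 to 1.39, adjusted p 0.0641 to 0.143).

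The genes that were lower in DETCs than in Thy1hi cells belonged to several roles. Ifitm3 (ENSMUSG00000025492.6, chromosome 7 from 141009586 to 141010770) had 879.9, 587, 576 and 424 normalized counts in Thy1hi cells. Every one of these was above every DETC value, and the log2 fold change was -2.70 (SE 0.53, adjusted p = 0.000385). Ifitm2 had 88.3, 84.3, 43.9 and 61.1 in Thy1hi cells, also without overlap, and a log2 fold change of -0.94 (SE 0.34, adjusted p = 0.0368). That call was lost without DETC library 1, 3, a or b or without Thy1hi library 1, 2 or 4 (−0.98 to −0.81, adjusted p 0.0513 to 0.116). Gbp2 (ENSMUSG00000028270.12, chromosome 3 from 142620602 to 142638008), a guanylate-binding protein that attacks the vacuoles of intracellular pathogens, had 144, 165, 150.4 and 162 in Thy1hi cells and 117, 45.8, 42.7, 27.4 and 44.4 in DETCs. The 4 Thy1hi libraries lay close together and above all DETC libraries, of which library 1 was well above the rest, and the log2 fold change was -1.64 (SE 0.36, adjusted p = 0.00111).

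Ifih1 had 182, 175, 329 and 155 normalized counts in Thy1hi cells, all above the DETC libraries, with a log2 fold change of -1.32 (SE 0.24, adjusted p = 0.000155). Trim25 had 304, 317, 393 and 471 in Thy1hi cells, overlapping with DETC library 1, with a log2 fold change of -0.60 (SE 0.18, adjusted p = 0.0137) that became -0.48 (adjusted p = 0.0647) without Thy1hi library 4. Usp18 had 61.8, 51.4, 104 and 41.7 in Thy1hi cells, where library 3 was the highest and the lowest library was below DETC library 1. The log2 fold change of Usp18 was -1.36 (SE 0.47, adjusted p = 0.0265), and the call was lost without DETC library 3 or a or without Thy1hi library 1 or 3 (−1.35 to −1.06, adjusted p 0.0551 to 0.101). Oas1a, an oligoadenylate synthetase that starts the RNase L pathway when it binds viral RNA, had 8.83, 17.1, 12.2 and 10.7 in Thy1hi cells and 0.98, 0, 2.37, 1.37 and 0 in DETCs. For Oas1a the log2 fold change was -2.89 (SE 0.54, adjusted p = 0.000247), and it rested on 5 reads in all DETC libraries against 47 in Thy1hi cells, a ratio of 11.6 with a 95% counting interval of 4.62 to 37.3.

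**Figure D3:**
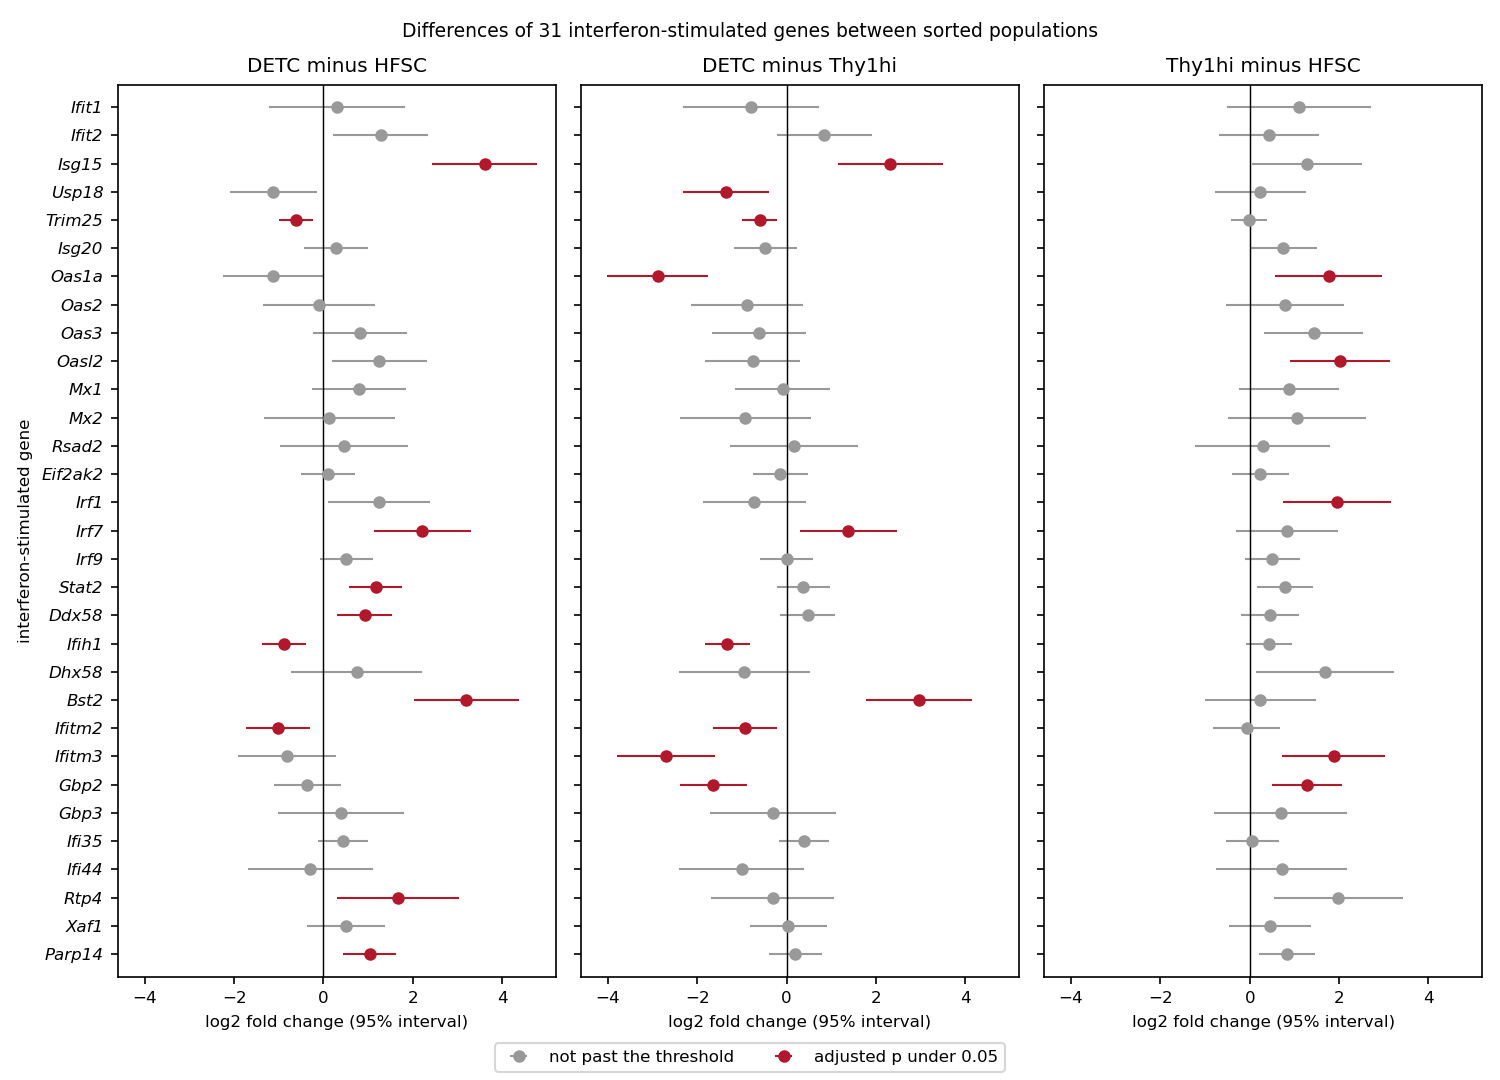
Log2 fold changes of the 31 tested genes with 95% intervals for DETCs against HFSCs, DETCs against Thy1hi cells and Thy1hi cells against HFSCs. Red points have an adjusted p under 0.05. Red points lie on both sides of 0 in the DETC comparisons, and the 5 red points of Thy1hi cells against HFSCs are all above 0.

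Thy1hi keratinocytes stood above HFSCs at nearly the whole set, by margins that mostly did not pass the test. The log2 fold change was above 0 at 29 of the 31 genes, against 51.4% of all genes, with a median of 0.79 against 0.02. In the limma fit 5 members were higher and none was lower, where 13.4% of all genes were called (6.51% higher and 6.86% lower). An unadjusted p was under 0.05 at 11 members (28.1% of all genes). DESeq2 called 7 members (19.7% of all genes), which were the 5 of limma with Oas3 and Parp14, and edgeR 3 (14.5%), all higher. Oasl2, a relative of the oligoadenylate synthetases, had 178, 195, 375 and 61.1 normalized counts in Thy1hi cells and 98.1, 57.6, 26.7 and 18.2 in HFSCs. Thy1hi library 4 fell inside the HFSC range, and the log2 fold change was 2.01 (SE 0.54, adjusted p = 0.0154). Irf1 (ENSMUSG00000018899.16, chromosome 11 from 53770014 to 53778374) had 1493, 1376, 1176 and 924 in Thy1hi cells, all above the HFSC values, of which library 4 was the lowest by far. Its log2 fold change was 1.95 (SE 0.58, adjusted p = 0.0284), and 0.97 (adjusted p = 0.0109) without HFSC library 4. For Ifitm3 the Thy1hi values were again all above those of HFSCs, with a log2 fold change of 1.88 (SE 0.56, adjusted p = 0.029). Oas1a had 3.46, 5.43, 3.21 and 0.70 in HFSCs, all below the Thy1hi libraries, and a log2 fold change of 1.77 (SE 0.57, adjusted p = 0.0445). Gbp2 had 114, 57.6, 67.3 and 35.7 in HFSCs, also below all Thy1hi libraries, and a log2 fold change of 1.28 (SE 0.38, adjusted p = 0.0289).

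Of the 31 genes, 6 did not overlap between Thy1hi cells and HFSCs, all higher in Thy1hi cells (9.46% of all genes tested did so). Beside 4 of the called genes these were Rtp4, with a log2 fold change of 1.99 (SE 0.69, adjusted p = 0.0627), and Parp14, with 0.84 (SE 0.30, adjusted p = 0.0693). None of the 5 calls held under every alternative. The count was 1 without HFSC library 4 (Irf1 alone), 1 without Thy1hi library 1 or 2 (Oasl2 alone) and 0 without Thy1hi library 3, while it was 6 without Thy1hi library 4. Over all genes, 888, 755, 811, 805 and 1341 were called higher in these fits, in that order, against 1120 with all libraries. The fits covered 16881 to 17204 genes. The Irf1 call was lost without Thy1hi library 1, 2 or 3 (adjusted p 0.0582 to 0.0794) and that of Oasl2 without Thy1hi library 3 or HFSC library 4 (0.0579 to 0.0683). Ifitm3 was lost without Thy1hi library 1, 2 or 3 or HFSC library 4 (0.0593 to 0.104), and Gbp2 without these or HFSC library 2 (0.0573 to 0.0961). Oas1a was lost without any 1 of the 4 Thy1hi libraries or without HFSC library 1, 3 or 4 (0.0576 to 0.138). Without HFSC library 4 the median of the set was 0.52 and 26 of 31 fold changes were above 0. HFSC library 4 also had the lowest summed level of Langerhans cell markers (154 normalized counts, against 2634 to 5390 in the other HFSC libraries) and of macrophage markers (4.90 against 133 to 338). Its share of reads on Rn45s was 13.1%, against 38.3% to 41.5% in the other HFSC libraries, and its basal keratinocyte markers summed to 53790 against 108400 to 118800 normalized counts. The part of these differences in the result was not tested.

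Thy1- keratinocytes had a like position against the same HFSC libraries. Fold changes on the log2 scale were above 0 at 27 of 31 genes (52.7% of all genes), with a median of 0.70 against 0.04. Without HFSC library 4 the median of the set was 0.34. No member passed the adjusted threshold in limma, where 6.08% of all genes were called, although 7 had an unadjusted p under 0.05 (23.7% of all genes). Of the count models edgeR called 0 members (7.49% of all genes) and DESeq2 called 1, Gbp2 (14.0%). The members without overlap were Irf1, Gbp2, Ifitm3 and Ifih1, all higher in Thy1- cells (4 of 31, beside 6.16% of all genes). Irf1 had 1035, 1244, 1204 and 1044 normalized counts in Thy1- libraries 1 to 4 and a log2 fold change of 1.84 (SE 0.58, adjusted p = 0.0625). Gbp2 had 130.1, 168, 184 and 139 and a log2 fold change of 1.27 (SE 0.38, adjusted p = 0.0509). Ifitm3 had 379, 333, 420.4 and 387 and a log2 fold change of 1.22 (SE 0.56, adjusted p = 0.188), and Ifih1 had 184, 197, 256 and 174 and 0.43 (SE 0.25, adjusted p = 0.299). Leaving out 1 library made calls of Irf1 (without HFSC library 2, 3 or 4, adjusted p 0.0198 to 0.0396), Gbp2 (without HFSC library 1 or Thy1- library 4, 0.0254 to 0.0477) and Oasl2 (without HFSC library 1, 1.96 (adjusted p = 0.0441)).

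Between Thy1hi and Thy1- keratinocytes, whose sorts differed only in the Thy1 gate, no interferon-stimulated gene passed the test without pairing. In the paired fit below, 1 did. Their marker sums differed as well. Basal keratinocyte markers summed to 175200 to 233400 normalized counts in Thy1hi and 78620 to 126300 in Thy1- cells. Suprabasal keratinocyte markers summed to 8604 to 26660 and 26390 to 39710, and fibroblast markers to 186 to 1946 and 123 to 215. The part of these differences in the result was not tested. Without pairing, limma called 0 of 31 members at an adjusted p under 0.05, with 0.337% of all genes called. An unadjusted p was under 0.05 at 0 members (7.22% of all genes). edgeR called 0 members (0.256% of all genes) and so did DESeq2 (1.22%). The log2 fold change was above 0 at 22 of 31 members (47.8% of all genes), with a median of 0.12 against −0.02 over all genes. Single libraries moved this, from 16 genes and a median of 0.0037 without Thy1hi library 3 to 26 genes and 0.28 without Thy1hi library 4, and the median was 0.029 without Thy1- library 1, 0.045 without Thy1- library 4 and 0.22 without Thy1- library 2. At Ifitm3 all 4 Thy1hi libraries (879.9, 587, 576 and 424 normalized counts) were above all 4 Thy1- libraries (379, 333, 420.4 and 387), and the log2 fold change was 0.65 (SE 0.56, 95% interval -0.51 to 1.81, adjusted p = 0.997). Oas1a also did not overlap, with 8.83, 17.1, 12.2 and 10.7 in Thy1hi and 3.65, 8.1, 7.1 and 6.56 in Thy1- cells. These were 2 of 31 genes, and 3.59% of all genes were without overlap in that direction. In this fit without pairing, the intervals of many other members reach well past a 2-fold change on at least 1 side. This was upward at Isg15 (-0.94 to 1.52) and downward at Mx1 (-1.41 to 0.83).

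The 2 keratinocyte sorts could be paired by replicate number, since equal numbers moved together (r 0.293 to 0.716 in the 4 pairs, against −0.652 to 0.514 between unequal numbers). A fit of these libraries as pairs called 1 member, Ifitm3, at 0.65 (SE 0.16, adjusted p = 0.0373), with 6.61% of all genes called. Standard errors of the 31 genes ran from 0.11 to 0.52 in the paired fit and from 0.19 to 0.77 without pairing. Over its alternatives the adjusted p of Ifitm3 ran from 0.0373 to 1. Within the pairs, Thy1hi cells were higher at 18, 12, 24 and 17 of the 31 genes in replicates 1 to 4, so that the direction over the set differed between pairs. Over all genes they were higher at 45.6%, 50.7%, 50.9% and 49.5%. In replicate 3 the median difference was 0.65 on the log2 scale, and in replicate 2 it was −0.07.

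Thy1hi YFP+ cells, the Cre-labelled counterpart of the Thy1hi cells, had log2 fold changes above 0 against Thy1hi cells at 27 of 31 genes (46.6% of all genes), with a median of 0.45 against −0.04. None of the 31 passed the adjusted threshold in limma (0.0116% of all genes called), edgeR (0.0116%) or DESeq2 (0.657%), and 1, Rsad2, had an unadjusted p under 0.05 (9.07% of all genes). Rsad2, which encodes viperin, had 41.9, 16.3 and 31.7 normalized counts in YFP+ libraries 1 to 3 and 4.42, 9.22, 13.0 and 3.88 in Thy1hi cells. The populations did not overlap, and the log2 fold change was 1.88 (SE 0.78, adjusted p = 0.485). Gbp3, a guanylate-binding protein, was the other gene without overlap, with 58.8, 33.3 and 45.6 against 17.7, 29.0, 17.9 and 11.6 and 1.26 (SE 0.77, adjusted p = 0.668). In that direction 4.92% of all genes did not overlap. Without YFP+ library 3 the log2 fold change was above 0 at 20 of 31 genes and the median was 0.14. Without YFP+ library 2 these were 28 genes and 0.83, and without Thy1hi library 4 they were 22 and 0.31.

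Within populations, single libraries stood high or low at most interferon-stimulated genes. YFP+ library 3 was the highest of its 3 libraries at 24 of the 31 genes (35.5% of all genes), with a median log2 difference of 1.01 from the other YFP+ libraries. At Oas2, an oligoadenylate synthetase, the YFP+ libraries had 20.9, 11.6 and 103 normalized counts, at Mx2 they had 30.9, 11.6 and 98.1, and at Dhx58 21.9, 5.42 and 62.4, so library 3 was 4.57 to 6.33 times the mean of the others. Usp18 had 83.7, 44.9 and 221 and Oasl2 233, 122 and 532. At other members library 3 was not above the rest, as at Isg15 (64.8, 43.4 and 55.5), Bst2 (25.9, 8.51 and 9.91), Gbp2 (293, 99.9 and 177) and Mx1 (22.9, 14.7 and 17.8). YFP+ library 2 was the lowest of the 3 at 27 of 31 genes (33.4% of all genes).

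DETC library 1 was the highest of 5 at 23 of the 31 genes (19.4% of all genes), with a median log2 difference of 0.92 from the other DETC libraries. Mx2 had 43.0, 7.12, 8.7, 2.74 and 6.0 normalized counts in DETC libraries 1, 2, 3, a and b, and Rtp4, given above, and Gbp3 (43.0, 19.3, 21.4, 6.86 and 4.8) had the same order of the first library over the rest. The ratio of library 1 to the mean of the other 4 was 7.01 at Mx2, 4.82 at Rtp4, 3.67 at Rsad2 and 3.37 at Xaf1, a gene tied to cell death, but 1.01 at Irf1 and 0.854 at Ifitm2. In this library the summed T cell, Langerhans cell and basal keratinocyte markers were 25540, 2242 and 47870 normalized counts, and in the other DETC libraries 19030 to 39660, 1232 to 3307 and 10410 to 44770.

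Among the keratinocyte sorts, Thy1hi library 3 was the highest of 4 at 19 genes (21.3% of all genes) and Thy1hi library 4 the lowest at 21 (32.8%). Oasl2, for example, had 178, 195, 375 and 61.1 normalized counts in Thy1hi libraries 1 to 4, and Ifit1 had 29.8, 31.6, 101 and 11.6. In Thy1- cells library 2 was the highest at 14 genes (26.9% of all genes), library 3 the highest at 12 (16.6%) and library 4 the lowest at 15 (35.4%). HFSC library 1 was the highest at 20 genes (18.4%) and HFSC library 4 the lowest at 20 (35.4%), with a median log2 difference of −0.83 from the other HFSC libraries. The genes at which HFSC library 4 was far below the rest included Irf1, Irf7, Isg15, Ifitm3 and Gbp3 (42.7, 16.3, 9.62 and 1.4 in HFSC libraries 1 to 4), while Usp18 (60.0, 38.0, 33.1 and 93.2) was highest in it and Ifih1, Parp14 and Eif2ak2, the kinase that halts translation on binding viral RNA (195, 151, 167 and 211), were not low. The series states 2 batches of libraries without saying which library belongs to which, so a batch and these differences cannot be told apart.

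**Figure D4:**
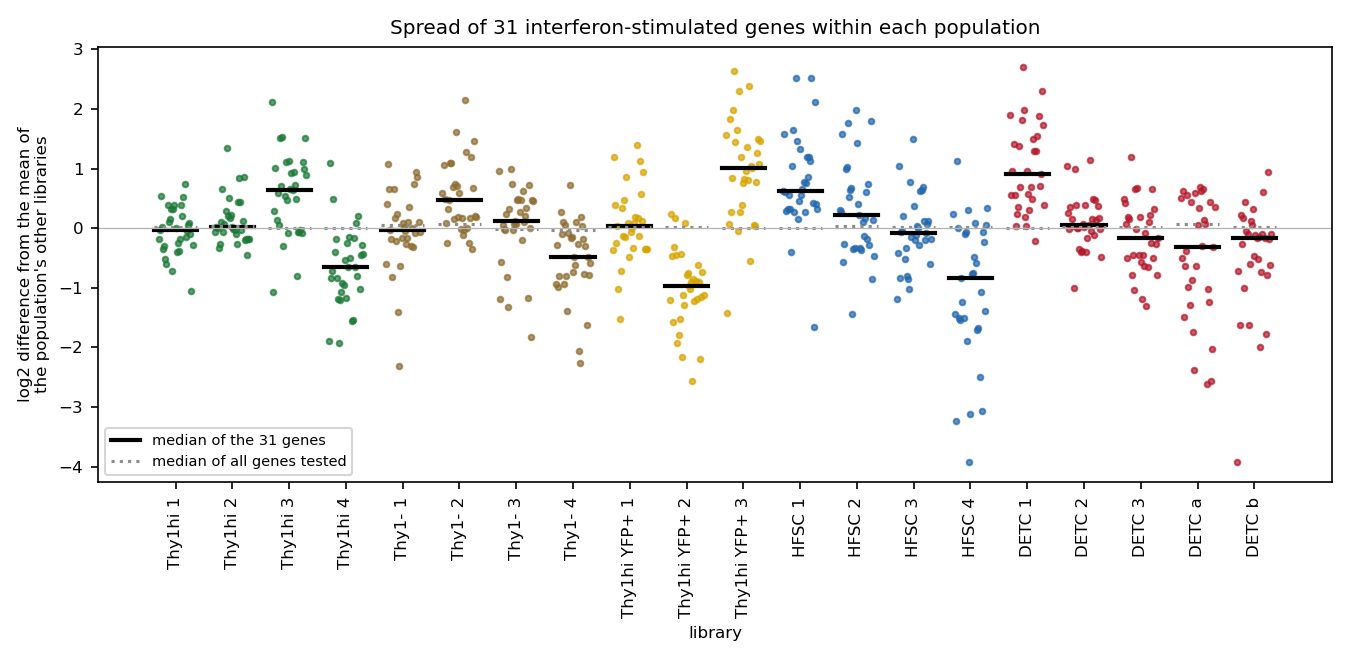
Log2 difference of each of the 31 genes in a library from the mean of the other libraries of its population (points), with the median of the 31 genes as a black bar and that of all genes tested as a dotted grey bar. The black bar is at 1.01 for YFP+ library 3, 0.92 for DETC library 1, −0.96 for YFP+ library 2 and −0.83 for HFSC library 4, while the grey bars stay near 0.

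Of the members not yet described, none passed the test of the limma fit with all libraries in any of the 6 comparisons. Isg20, an exonuclease, had 8.41 to 46.3 normalized counts over the 20 libraries, Oas3 6.31 to 135, Xaf1 18.2 to 107, Ifi35 46.3 to 143 and Ifi44 0 to 26.8. Oas3, at 1.43 (SE 0.53, adjusted p = 0.0807) for Thy1hi cells against HFSCs, was called there by DESeq2, with quantile normalization, with a replicate block over all populations and without Thy1hi library 4. Ifit2, which like Ifit1 binds RNA, had 1.98 to 20.6, with a log2 fold change of 1.28 (SE 0.51, adjusted p = 0.0527) for DETCs against HFSCs that passed without HFSC library 1 (1.67) or DETC library b (1.42, adjusted p 0.0183 to 0.0451). Several genes overlap another gene on the same strand (Ifitm2 with Gm45717, Irf9 with Rnf31, Parp14 with Gm49730 and Rtp4 with Gm45338) or on the opposite strand (among them Irf7 with Phrf1 and Irf1 with Gm17334). The strand setting of the counting is not given in the sources used here, and near-identical relatives such as Ifit3, Oas1a and the Ifitm and Gbp genes may share reads with their copies, so their counts are uncertain to that extent.

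The ligands upstream of these genes were low, and most were at or near 0 in every library. Ifnb1 and Ifna4, type I interferons, had at most 2.99 and 4.86 normalized counts in any library, and Ifnk, the interferon of keratinocytes, at most 8.08. Ifne had 9.6 in DETC library a and at most 2.43 in any other library. Ifng, interferon gamma, had 18.6, 10.2, 5.53, 5.49 and 1.2 in DETCs and at most 3.31 elsewhere. None of the 10 ligands listed reached the minimum for a test. Of a list of 43 genes of the interferon pathway, 31 were tested.

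Chains of both receptors and the kinase Jak1 were higher in DETCs than in HFSCs and Thy1hi cells. Against HFSCs, 16 of the 31 pathway genes were higher in DETCs and 1 was lower, beside 39.7% of all genes called. Ifnar1, the first chain of the type I receptor, had 1089, 1019, 980.3, 1652 and 785 normalized counts in DETCs and 196, 245, 295 and 247 in HFSCs, without overlap, and a log2 fold change of 2.13 (SE 0.23, adjusted p = 2.96e-07). Ifngr1, the ligand-binding chain of the type II receptor, had 2113, 1734, 1695, 3331 and 1976 against 469, 285, 502 and 310.4 and 2.46 (SE 0.23, adjusted p = 4.9e-08). Socs1, an inhibitor of Jak kinases, had 166, 163, 148, 207 and 101 against 25.4, 41.3, 18.2 and 4.2 and 3.08 (SE 0.43, adjusted p = 9.06e-06). The largest changes were at Tmem173, which encodes the adaptor STING, at 5.01 (SE 0.50, adjusted p = 9.74e-08), and Zbp1, a nucleic acid sensor, at 3.22 (SE 0.65, adjusted p = 0.000549). The phosphatase Ptpn6, at 2.48 (SE 0.25, adjusted p = 9.2e-08), Ifngr2, at 2.09 (SE 0.19, adjusted p = 2.88e-08), and Jak1, at 1.82 (SE 0.23, adjusted p = 2.05e-06), were higher as well, and the gene that was lower was Tlr3, a receptor for viral RNA named here after its value was seen, at -1.48 (SE 0.37, adjusted p = 0.00322).

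Against Thy1hi cells, 9 pathway genes were higher in DETCs and 5 were lower (36.6% of all genes called). Ptpn6, Tmem173, Socs1, Ifngr2 and Ifnar1 were again higher, with log2 fold changes of 2.98, 2.95, 2.29, 2.10 and 2.02. The genes that were lower included Ifnlr1, the receptor chain for interferon lambda, at -1.51 (SE 0.41, adjusted p = 0.00601), and Tlr3, at -1.51 (SE 0.37, adjusted p = 0.00279). Ifnlr1 had 91.6, 159, 164 and 85.4 normalized counts in Thy1hi cells and 61.6, 63.0, 51.4, 9.6 and 61.2 in DETCs. The lowest of these was DETC library a, which also had the least basal keratinocyte RNA, and a link between them was not tested. Thy1hi cells were higher than HFSCs at 11 pathway genes and lower at none (13.4% of all genes called), among them Tmem173, at 2.06 (SE 0.52, adjusted p = 0.0113), Jak2, Il10rb and Ifngr1, at 1.41, 1.34 and 1.31. Thy1- cells were higher than HFSCs at 3 (6.08% of all genes called), namely Jak2, Ifngr1 and Il10rb, at 1.28, 0.96 and 0.95. In Thy1hi against Thy1- cells and in YFP+ against Thy1hi cells limma called none of the 31 pathway genes, nor did edgeR or DESeq2, while 0 and 5 had an unadjusted p under 0.05. In the paired fit of Thy1hi with Thy1- cells 1 of the 31 was called, as higher (6.61% of all genes called).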

How the data were processed

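Bulk RNA-seq of 20 libraries from 5 sorted epidermal populations was analysed. The deposited signal is a table of normalized counts per Ensembl gene, made by the authors with STAR, featureCounts and DESeq2 on mm10, in which each library was scaled by its own size factor (0.729 to 1.43). All values returned whole reads. Values of Thy1- library 4 stood in the wrong row at 3212 genes (correlation with the other Thy1- libraries 0.0354 as deposited, 0.936 once put back). None of the 34 members was among them. No library column was left unused.

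Genes with at least 10 in at least 3 libraries (17204) were fitted with limma 3.58.1 (lmFit, eBayes with trend, R 4.3.3) on log2(value + 1), so that fold changes of low genes are understated, with 1 mean per population and no covariate. Tests are two-sided, with Benjamini-Hochberg adjustment over all genes tested and 0.05 as the threshold. Unless edgeR or DESeq2 is named, adjusted p-values come from limma. Called members are all named, and members without overlap that were not called are named up to 5. Of the other lists up to 8 called genes are named per comparison, by size. Some genes of these lists are not reported here.

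Alternatives were a pseudocount of 0.1 or 10, a minimum mean of 50 or no filter, quantile normalization, the deposited row order, 2 populations only, a replicate block, each library left out, and edgeR 4.0.16 and DESeq2 1.42.0 on whole reads. Same-numbered libraries had correlated deviations over 0.1 in every pair of Thy1hi with Thy1- (r 0.293 to 0.716, 4 pairs) and of DETC with HFSC (r 0.170 to 0.333, 3 pairs), so the numbers were taken to pair them. Levels per kilobase used exon lengths of GENCODE M21. Figures were drawn with matplotlib 3.10.9. Members, lists and tests were chosen with earlier results of these data known.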

Additional observations from a re-analysis of the deposited data

Results flagged for a closer look

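Of 124 sets of 4 or 5 libraries of 1 population at 1 gene, 9 had a library whose gap to the next was large for the range of its population. For normally distributed values, chance alone gives about 1 in 20, and 9 of 124 is near that share. The gaps were taken on normalized counts without a log scale, so that share may not hold here. The 9 are therefore listed as a description only. At DETC library 1 this held for Mx2, with 43.05 normalized counts against 8.70 in the next library, Gbp2, with 117.41 against 45.8, Rtp4, with 55.77 against 16.3, and Xaf1, with 95.89 against 35.6. Thy1hi library 3 was apart at Ifih1, with 329.22 normalized counts against 182, and at Parp14, with 523.49 against 299. HFSC library 1 was apart at Mx2, with 32.32 against 7.71, and HFSC library 2 at Oas2, with 16.29 against 4.62. DETC library a was the low library at Isg20, with 19.21 against 24.4. The 3 YFP+ libraries are too few for this rule.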

How the results depend on the processing

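Over the members and listed genes named in a comparison, 1696 values under an alternative kept their direction and their side of the threshold, 159 lost the call, 46 gained one and 1 reversed. That 1 was Ifit1 in DETCs against HFSCs, which was not called and ran from −0.0698 (without DETC library 1) to 1.10 with a library left out. The count of called members for Thy1hi cells against HFSCs (5) was 3 with no filter, 1 with only those populations in the fit, 3 with edgeR, 10 with a replicate block over all populations, and 0 to 6 with a library left out. Calls over all genes moved as well, with 1120 higher in Thy1hi cells in the main fit of 17204 genes. They were 860 with no filter (43619 genes), 861 with only those populations and 1101 with edgeR. With the replicate block they were 1923, and with a library left out 755 to 1341. For Thy1- cells against HFSCs (0) the count of called members was 1 with a pseudocount of 10, with a mean of at least 50, with quantile normalization and with DESeq2, 4 with the replicate block, and 0 to 2 with a library left out. Over all genes 440 were higher in the main fit, 501, 482, 734 and 1093 in the first 4 of these, and 1382 with the block. With a library left out 157 to 1098 were higher. For DETCs against Thy1hi cells (10) the count of called members was 6 with the replicate block, and 7 to 9 with a library left out. Over all genes 3425 were higher and 2864 lower in the main fit, and 3206 and 2539 with the block. With a library left out 3080 to 3344 were higher and 2395 to 2902 lower. Thy1hi, Thy1- and DETC libraries share only a number with HFSC or Thy1hi libraries in these 3 comparisons (the lowest r was −0.232, −0.225 and −0.118). The paired fit of Thy1hi with Thy1- cells called 1 member against 0 without the block (6.61% of all genes against 0.337%). The paired fit of DETCs with HFSCs, chosen after the data were seen, called 14 against 10 (42.1% of all genes against 39.7%). It rested on libraries 1 to 3 of each population. In every fit with a replicate block, DETC libraries a and b had no partner and so did not bear on a difference. The replicate block changed no call in YFP+ against Thy1hi cells. The causes of these changes were not tested. Depth limits the low genes most, since Oas1a, Ifi44 and Oas2 had 186, 161 and 304 reads over all libraries.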

Other observations

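A further 49 interferon-induced genes outside the set, of which 43 were tested, gave a different balance in DETCs. Against HFSCs 23 were higher in DETCs and 2 lower (39.7% of all genes called), and against Thy1hi cells 18 were higher and 7 lower (36.6%), with medians of 1.38 and 0.43 on the log2 scale. These comparisons share the DETC libraries, and the list was chosen with earlier results of these data known. Gbp4 rose most in both, by 5.67 (SE 0.49, adjusted p = 1.28e-08) against HFSCs and 5.28 (SE 0.49, adjusted p = 3.38e-08) against Thy1hi cells, with 601, 411, 456, 682 and 241 normalized counts in DETC libraries 1, 2, 3, a and b, 10.4, 13.0, 4.28 and 6.31 in HFSCs and 12.1, 23.7, 7.32 and 5.82 in Thy1hi cells. Lgals3bp, a secreted binding protein of galectin, rose by 5.42 and 4.89, Gbp9 by 5.37 and 4.12, and Gbp8 by 5.01 and 4.04. Trim30a, Slfn8 and Ifi47, an immunity-related GTPase, rose by 4.64, 4.61 and 4.42 against HFSCs, and Uba7, the enzyme that activates ISG15 for conjugation, rose by 3.52 against Thy1hi cells. Sp100 rose by 3.83 and 3.75. Among the genes that were lower in DETCs than in Thy1hi cells, those with the largest changes were, named after their values were seen, Phf11d, at -2.27 (SE 0.48, adjusted p = 0.00071), and Iigp1, an immunity-related GTPase, at -2.09 (SE 0.54, adjusted p = 0.00419). Against Thy1hi cells Gbp4, Gbp8 and Gbp9 were thus higher in DETCs while Gbp2, a member of the set, was lower. The spans of Gbp4, Gbp8 and Gbp9 overlap on chromosome 5, where that of Gbp8 runs from 105014150 to 105139540. Whether these genes share reads was not tested, so they may not count as separate changes.

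Thy1hi cells were higher than HFSCs at 5 of these 43 genes (13.4% of all genes called) and Thy1- cells at 4 (6.08%), with none lower. Ifi203 was called in both comparisons, which share the HFSC libraries, at 2.30 (SE 0.48, adjusted p = 0.0026) and 2.19 (SE 0.48, adjusted p = 0.00836). In Thy1- cells Gbp5 was at 2.70 (SE 0.72, adjusted p = 0.0281) and the chemokine Cxcl10 at 1.83 (SE 0.37, adjusted p = 0.00516). Cxcl10 had 74.2, 64.8, 63.1 and 48.4 normalized counts in Thy1- libraries and 23.1, 19.6, 23.5 and 7.01 in HFSCs. DETC library 1 was the highest of its population at 27 of the 43 genes (19.4% of all genes) and HFSC library 1 at 25 (18.4%). YFP+ library 2 was the lowest of its population at 32 (33.4%).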
